A study of Homo sapiens with 5 samples.

Results

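These are the BG4 regions of LNCaP cells that the peak list of replicate 1 holds and the lists of replicates 2, 3 and 4 do not. BG4 is an engineered antibody fragment against G-quadruplexes, and LNCaP is an established human prostate cancer cell line. The study sequenced chromatin of this line from 4 BG4 pull-downs and 1 input to map G-quadruplexes and relate them to enhancers. The labels give no treatment, genotype change or culture identity for any of the 5 samples, so the replicates may be technical. The regions were selected on the calls themselves. Peaks of the 4 lists on chromosomes 1 to 22 that overlapped by at least 1 bp were merged into 7393 regions, and the 2991 regions with peaks of replicate 1 alone were kept. Regions called in 2 or more lists, of which there were 3506, served as the comparison and are called shared regions. All positions are on the hg19 build.

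A G-quadruplex forms where a guanine-rich strand folds on itself and guanines stack in planar layers around a metal ion such as potassium. In human chromatin such structures are known to be found mostly in open, nucleosome-depleted DNA near active genes, so maps of them tend to be dense on gene-rich chromosomes, of which chromosome 19 is the best known. A region found in a single replicate may or may not share this genome pattern, which is the question the comparisons address. Genes, promoters and the sequence at these positions were not analysed here.

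Replicate 1 had the longest list, with 6367 peaks on these chromosomes, and 46.98% of them (95% exact binomial interval 45.74% to 48.2%) were in no other list. The peaks found in 1 list made up 6.92% of the 1618 peaks of replicate 2, 15.9% of the 3592 peaks of replicate 3 and 9.995% of the 2121 peaks of replicate 4. The share of replicate 1 was the highest of the 4 in the full lists, but not in lists cut to equal length. When every list was cut to its top 1618 peaks by −log10 q, 320 peaks of replicate 1 were in no other list, or 19.8% (17.9% to 21.8%), against 25.7%, 19.5% and 24.3% in replicates 2, 3 and 4. Sequencing depth, worked back from the peak values, was 3.43 reads per kb in replicate 1 and 2.48, 3.01 and 2.72 in replicates 2, 3 and 4. How far depth accounts for the number of regions was not tested. Every one of the 2991 regions consisted of 1 peak, and together they covered 1.01 Mb. Regions of replicates 2, 3 and 4 alone numbered 112, 572 and 212.

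The calls that chose the regions also rank them low in strength, which is described here without a test. In the replicate 1 list, the fold over local background, as the authors' caller gave it, had a median of 5.63 in the replicate 1-only peaks, with 10% of peaks under 4.07 and 10% over 7.64. The 3376 replicate 1 peaks in shared regions had a median fold of 7.48. The fold went up with the number of lists, from 6.50 in peaks of regions called in 2 lists to 7.74 in 3 lists and 10.1 in 4. The range of the replicate 1-only peaks lay within that of the shared ones. The former ran from 1.96 to 12.7 and the latter from 1.29 to 29.6. In reads, the median summit of a replicate 1-only peak held 13, against 19 in shared regions, and the weakest held 6 in both sets. Single peaks of this height carry a large counting error.

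Few regions owed their place to the exact overlap limit. Of the 2991 regions, 153 (5.12%) lay less than 1 kb from a region with a peak of another list and 7 lay less than 100 bp away. Such a region can also hold a replicate 1 peak, whose edge may be the nearer one. The closest to being shared was chr3:9834060-9834459, which missed a peak of replicate 4 by 4 bp and had a fold of 7.71. The next were chr19:58987289-58987801 at 33 bp from a peak of replicate 2 with a fold of 3.82, chr10:124639392-124639701 at 41 bp from replicate 3 with 3.65, chr2:97778670-97779022 at 46 bp from a region of replicates 1 and 4 with a fold of 5.20, and chr8:27184585-27184882 at 62 bp from replicate 2 with 4.06. On the other side of the limit, the smallest overlap that made a replicate 1 peak shared was 6 bp, at chr2:97779403-97779671 with replicate 4 and a fold of 5.88, in the same region of replicates 1 and 4. The following were chr9:36136531-36136795 with 8 bp and a fold of 6.15, chr5:138709650-138709903 with 13 bp and 4.94, chr1:201798320-201798820 with 21 bp and 4.47, and chr2:86790098-86790638 with 28 bp and 3.76. Such shallow overlaps were rare. Of the 3376 shared replicate 1 peaks, 8 (0.237%) overlapped the other lists by less than 50 bp, and the median overlap was 312 bp.

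The replicate 1-only regions followed the chromosome pattern of the shared regions closely. Chromosome 19 was the densest in both sets, with 3.98 replicate 1-only regions and 5.78 shared regions per Mb of spanned length. Chromosomes 22, 17, 16 and 20 filled the next 4 places in both sets, with 2.38, 2.97, 1.85 and 1.60 replicate 1-only regions per Mb against 1.07 over all 22 chromosomes. The lowest densities of replicate 1-only regions were 0.369 per Mb on chromosome 13, 0.487 on chromosome 4 and 0.541 on chromosome 18. Of the 22 chromosomes, 21 lay on the same side of the overall density in both sets. The exception was chromosome 15, at 1.04 times the overall density for replicate 1-only regions and 0.903 times for shared ones. Across the 22 chromosomes the 2 densities had a Spearman rho of 0.965 and a Pearson r of 0.971, and r was 0.946 without chromosome 19. These are descriptions over chromosomes, which share the same libraries and input. Most shared regions also hold a replicate 1 peak. Those without one numbered 28 (replicates 2 and 3), 16 (2 and 4), 67 (3 and 4) and 22 (2, 3 and 4). The comparison is therefore largely of 2 parts of the replicate 1 list, not of replicate 1 with independent regions.

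**Figure D1:**
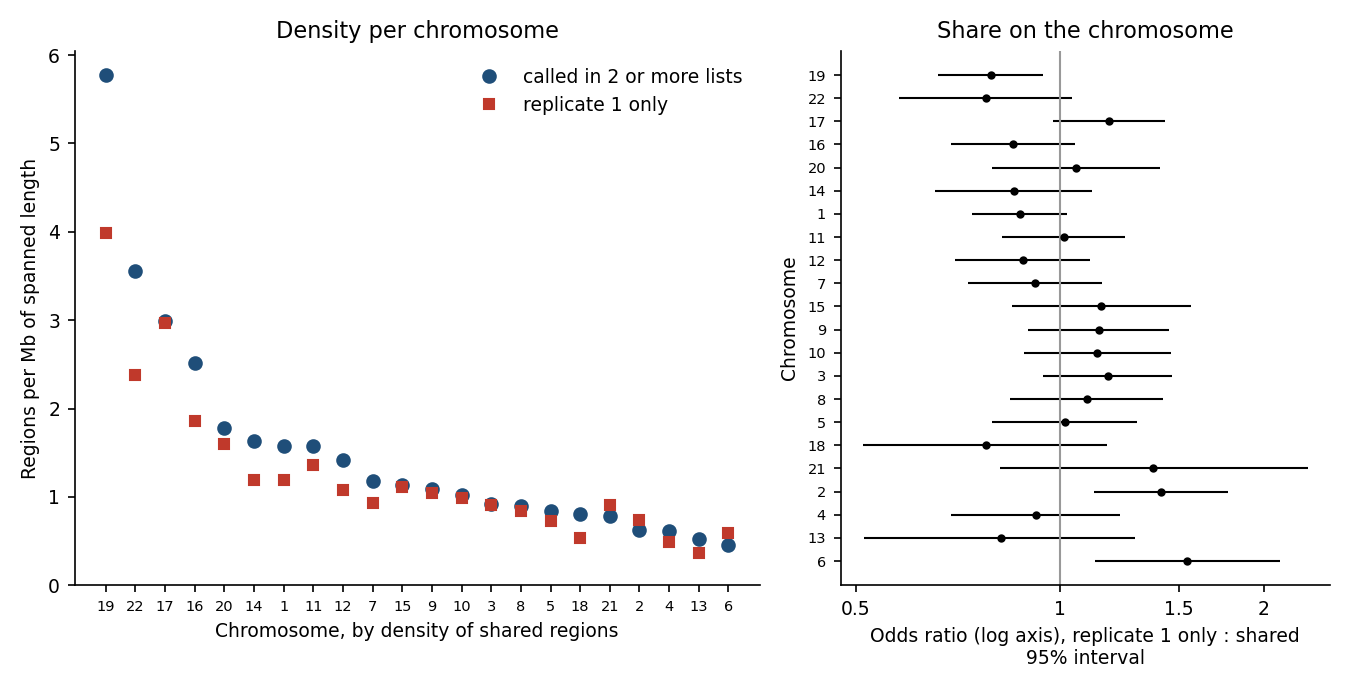
Left, regions per Mb of spanned length (first to last peak of a chromosome over all lists) on each of 22 chromosomes, for regions of replicate 1 alone (squares) and shared regions (circles). Right, odds ratio of the share on a chromosome, replicate 1-only against shared regions, on a log axis with its 95% interval. The order of the chromosomes is nearly the same in both sets, and the intervals of chromosomes 2, 6 and 19 do not include 1.

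Chromosome shares were then compared directly, by a two-sided Fisher's exact test per chromosome with Benjamini-Hochberg adjustment. No chromosome passed the 0.05 threshold (0 of 22, or 0%), and 3 had an unadjusted p under 0.05. Chromosome 2 held 181 of the replicate 1-only regions (6.05%) and 153 of the shared ones (4.36%), an odds ratio of 1.41 (95% interval 1.13 to 1.77) with an adjusted p of 0.0509 in Fisher's exact test. Chromosome 6 held 100 (3.34%) and 77 (2.196%), an odds ratio of 1.54 (1.13 to 2.11, adjusted p = 0.063 in the same exact test). Chromosome 19 held 235 (7.86%) and 341 (9.73%), an odds ratio of 0.791 (0.662 to 0.945, adjusted p = 0.063 in the same exact test). The ratio of the shares ran from 0.781 on chromosome 18 to 1.52 on chromosome 6. It was above 1 on 12 chromosomes and below 1 on 10. Over all 22 chromosomes the 95% intervals of the odds ratio reached from 0.512 (chromosome 18) to 2.32 (chromosome 21), so the counts of small chromosomes leave wide limits.

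The calls sat at the threshold and depended on how sharing was defined. With an overlap of at least 50% of both peaks, chromosomes 2, 6 and 19 all passed (Fisher's exact test, adjusted p = 0.00566, 0.0114 and 0.0225), and without replicate 3 chromosome 16 passed as well. The test treats neighbouring regions as independent, and its p-values describe these lists, not cultures. When runs of regions less than 100 kb apart were counted once in both sets, the chromosome 19 ratio turned from 0.808 to 1.12 (adjusted p = 0.750 in the exact test). Such thinning removes most from the densest chromosomes by its construction.

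The shares of these 3 chromosomes also differed with the number of lists that call a region. Chromosome 19 held 7.86% of the regions of replicate 1 alone (95% exact binomial interval 6.92% to 8.88%). Among regions that replicate 1 shared with 1, 2 and 3 other lists it held 8.47%, 9.44% and 12.2% (10.1% to 14.5% for the last). The share of chromosome 6 went the other way, from 3.34% (2.73% to 4.05%) to 2.60%, 1.91% and 1.59% (0.874% to 2.66%). Chromosome 2 went from 6.05% (5.22% to 6.97%) to 4.80%, 4.12% and 4.10% (2.89% to 5.63%). For chromosomes 19 and 6 the intervals of the regions in 1 list and in 4 lists did not overlap, while for chromosome 2 they did. These 3 chromosomes are the ones with an unadjusted p under 0.05 in Fisher's exact test above, which used the same regions. A difference between the first and last values was therefore partly fixed by that choice, and the intervals add no support of their own. The trend over lists was not tested. Regions of the other lists alone gave less precise values. Chromosome 19 held 9.82%, 8.74% and 8.02% of the regions of replicates 2, 3 and 4 alone. Each of those intervals included both the 7.86% of replicate 1 and the 9.73% of shared regions.

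**Figure D2:**
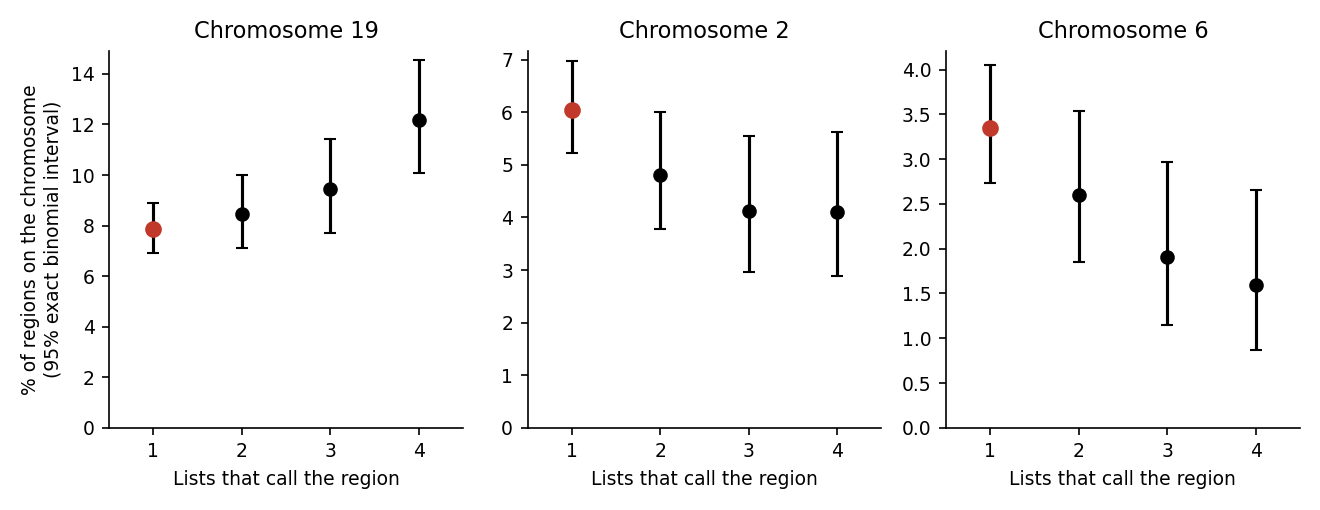
Percent of the regions of replicate 1 that lie on chromosomes 19, 2 and 6, by the number of lists that call the region (1 list is replicate 1 alone, in red), with 95% exact binomial intervals. These are the chromosomes with an unadjusted p under 0.05 in Fisher's exact test on the same regions. The share of chromosome 19 goes from 7.86% to 12.2% and that of chromosome 6 from 3.34% to 1.59%. The vertical scales differ between panels.

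At the scale of fixed 1 Mb windows, most regions of replicate 1 alone lay where regions called in 2 or more lists also lay. The peaks spanned 2804 windows, of which 1348 (48.1%) held a shared region and 1301 (46.4%) held a replicate 1-only region. Of the 2991 replicate 1-only regions, 2464 (82.4%, 95% exact binomial interval 80.97% to 83.7%) fell in the 48.1% of windows with a shared region. Shared regions did so to nearly the same degree, as 83.3% of them (82.0% to 84.5%) had another shared region in their window. The values for regions of replicates 2, 3 and 4 alone were 83.0%, 81.5% and 82.5%. All 4 single-list sets and the shared set therefore lay within 2 percentage points of each other, and no test was made, since windows are not replicates. The shares depend on which regions count as shared. Against the 878 regions called in all 4 lists, 49.5% of the replicate 1-only regions fell in the 20.7% of windows that hold one, and 54.1% of those 878 (50.7% to 57.4%) had another of them in their window.

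The number of replicate 1-only regions in a window went up with the number of shared ones. Of the 1456 windows without a shared region, 24.9% held a replicate 1-only region (95% exact binomial interval 22.7% to 27.2%), with a mean of 0.362 ± 0.748 per window (SD over windows). With 1 shared region the percentage was 57.4% (53.3% to 61.5%), with 2 it was 67.4%, with 3 or 4 it was 80.97%, and with 5 to 9 it was 93.5%. All 43 windows with 10 or more shared regions held replicate 1-only regions as well, with a mean of 7.23 ± 3.48 per window. Over the 2804 windows the 2 counts had a Spearman rho of 0.551 and a Pearson r of 0.677. Without chromosome 19, the values over 2744 windows were 0.533 and 0.649. Both counts of a window come from the same libraries, and most shared regions hold a replicate 1 peak, so these values are descriptions.

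**Figure D3:**
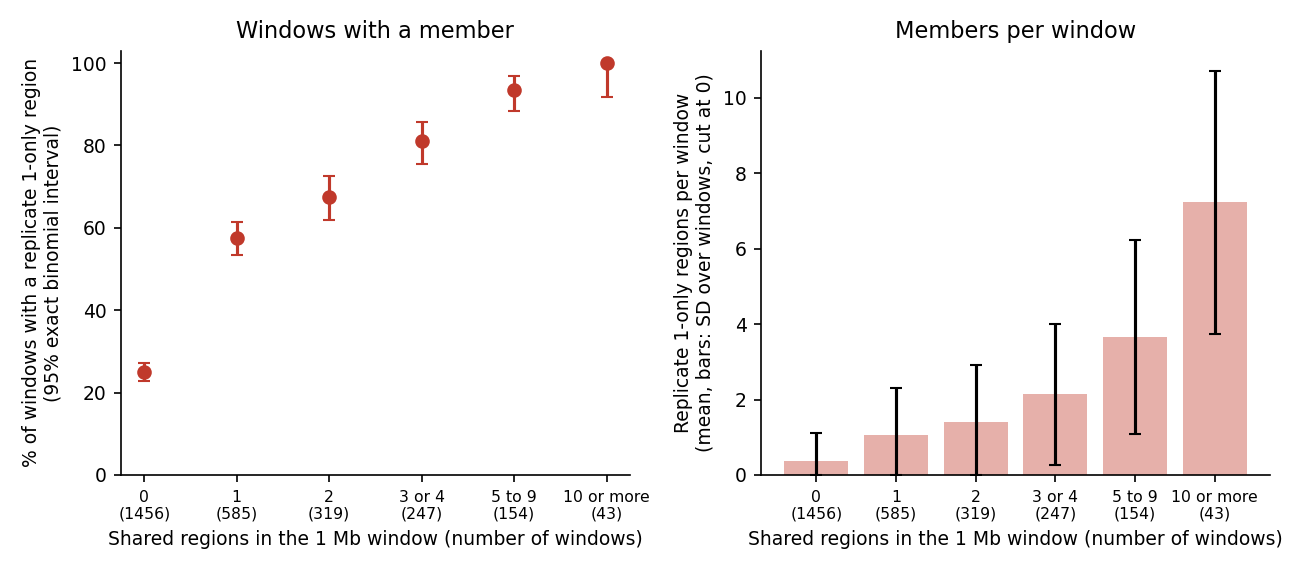
Windows of 1 Mb grouped by the number of shared regions they hold, with the number of windows in brackets. Left, percent of windows with at least 1 region of replicate 1 alone (95% exact binomial interval); right, mean number of such regions per window (bars, SD over windows, cut off at 0). The percentage goes from 24.9% in windows without a shared region to 100% in windows with 10 or more.

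The windows richest in replicate 1-only regions were also rich in shared ones. The most were in the window from 1000001 to 2000000 on chromosome 19, with 19 replicate 1-only and 15 shared regions. The window from 139000001 to 140000000 on chromosome 9 had 15 and 13, the first Mb of chromosome 11 had 14 and 9, the window from 65000001 on chromosome 11 had 13 and 14, and the window from 3000001 on chromosome 16 had 13 and 8. A further 363 windows (12.9%) held replicate 1-only regions but no shared region. The fullest of these was the window from 170000001 to 171000000 on chromosome 6, with 6 replicate 1-only regions. Windows from 58000001 on chromosome 3 and from 6000001 on chromosome 10 held 5 each, and those from 203000001 on chromosome 1 and from 37000001 on chromosome 2 held 4 each. In these 5 windows the other lists alone added 1 region, from replicate 3 on chromosome 1.

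Distances to the nearest shared region gave the same picture at a finer scale. The median distance of the replicate 1-only regions was 110.8 kb (95% interval 102.8 to 119.4 kb), with an interquartile range of 32.3 to 334.6 kb. Shared regions lay a median of 95.8 kb (87.7 to 102.2 kb) from the next shared region. Within 100 kb of a shared region lay 1424 of the replicate 1-only regions (47.6%, 95% exact binomial interval 45.8% to 49.4%) and 51.1% of the shared regions (49.4% to 52.8%). The spanned length within 100 kb of a shared region was 17.4% of the whole, well below both shares. The intervals of the 2 medians did not overlap, and neither did those of the 2 shares, though by a narrow margin. The difference was not tested. Against the regions called in all 4 lists, 19.6% of the replicate 1-only regions lay within 100 kb, as did 22.9% of those regions from each other (20.2% to 25.8%) and 5.51% of the length. Within 10 kb of a shared region lay 12.1% of replicate 1-only and 11.6% of shared regions, against 2.42% of the length, and within 1 Mb lay 91.2% and 93.4%, against 65.0%.

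Regions of the other lists alone were compared in the same way. Their median distances were 110.4 kb for replicate 2, 99.9 kb for replicate 3 and 93.6 kb for replicate 4. The shares within 100 kb were 49.1%, 50.2% and 52.4%. Each interval included both the 47.6% of replicate 1 and the 51.1% of shared regions, so these smaller sets cannot tell the 2 apart. Among themselves the replicate 1-only regions were spaced more widely than shared regions, with a median of 137.1 kb to the next replicate 1-only region against 95.8 kb. The sets differ in number, 2991 against 3506, and the part of this in the spacing was not tested. Shares near the first and last peak of a chromosome, which need not be its ends, were also similar. Within 5 Mb of the first or last peak of a chromosome lay 19.6% of the replicate 1-only regions (18.2% to 21.0%) and 18.5% of the shared ones (17.3% to 19.9%).

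**Figure D4:**
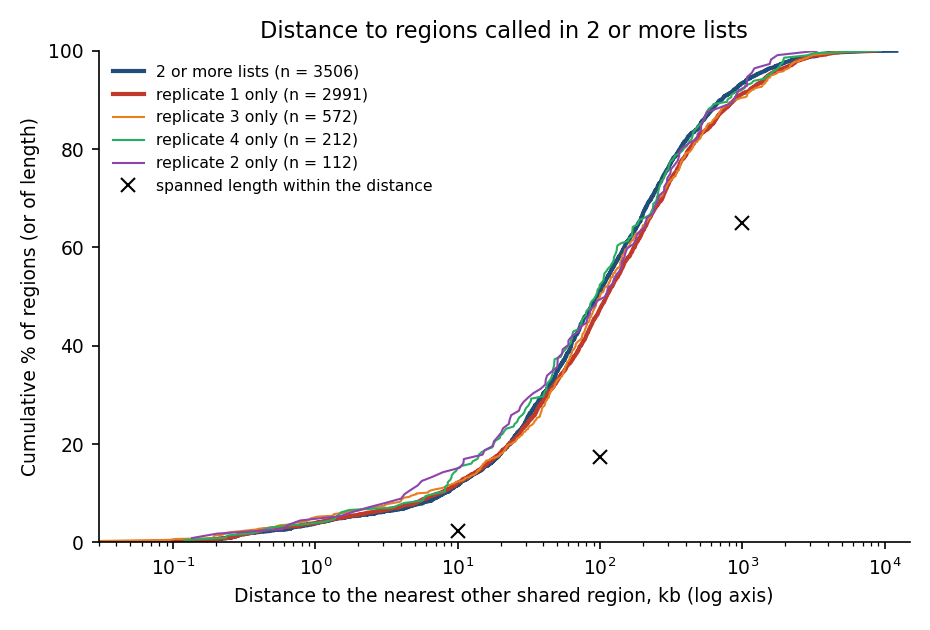
Cumulative percent of regions by distance to the nearest other shared region (kb, log axis), for shared regions, regions of replicate 1 alone and regions of each other replicate alone. Crosses give the percent of the spanned length within 10 kb, 100 kb and 1 Mb of a shared region (2.42%, 17.4% and 65.0%), which lies under all 5 curves.

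Placement was much the same for weak and strong replicate 1-only regions. They were put in 4 groups of near-equal size by fold, with median folds of 4.28, 5.24, 6.09 and 7.43. In this order the share within 100 kb of a shared region was 49.2%, 48.9%, 44.8% and 47.5%. The share in windows with a shared region was 84.0%, 83.4%, 79.0% and 83.0%, and chromosome 19 held 7.16%, 8.22%, 7.93% and 8.17%. For the share within 100 kb and for chromosome 19, the 95% exact binomial intervals of all 4 groups overlapped. For the windows, the interval of the third group (75.9% to 81.9%) overlapped those of the others, narrowly for the first group (81.3% to 86.5%). Overlap of intervals does not show that groups are equal, and the differences were not tested.

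A set of 262 regions (8.76%) lay more than 1 Mb from any shared region, at up to 8.52 Mb. Chromosomes 2 and 6 held the most, 36 and 30, or 19.9% and 30.0% of their replicate 1-only regions. On the same chromosomes 15.7% and 15.6% of the shared regions lay that far from the next one. Chromosome 19 held 4 of the 262 (1.53%, 95% exact binomial interval 0.418% to 3.86%), against 12.7% (7.29% to 20.1%) of the 118 regions within 1 kb of a shared region. Such a contrast follows from the grouping by distance, since shared regions are densest on chromosome 19. Of its 341 shared regions, 0 lay more than 1 Mb from the next one. Width was close in the distant and the near regions, while the median fold was higher in the distant ones. The distant regions had a median fold of 5.87 and a median width of 306 bp, against 5.27 and 304 bp in the 118 near ones. The median summit held 13 reads in both, over a median background of 1.49 and 1.68 times the genome level. The difference in fold was not tested. The background of the caller lay at its genome-wide level for 23.7% of the distant regions and for 5.93% of the near ones. Chromosome 6 had the fewest shared regions per Mb, 0.454.

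Peaks of replicate 1 alone were narrower than those in shared regions. Widths are those of the replicate 1 peak in both sets, since a merged region of several lists is wider by construction. The median width was 303 bp in the replicate 1-only regions and 398 bp in the shared ones. The smallest width, 254 bp, was held by 16.2% of the replicate 1-only peaks and 3.64% of the shared peaks. Widths reached 1080 bp and 1523 bp. Width and call come from the same peak, and a wider peak meets a peak of another list more easily, so this is a description. The same order appeared in the other lists, with medians of 262 against 328 bp in replicate 2, 277.5 against 339 bp in replicate 3 and 290 against 342 bp in replicate 4.

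The same order was seen within ranges of fold. All replicate 1 peaks were split by fold into 5 groups of near-equal size, and the median width of the replicate 1-only peaks was below that of the shared ones in each. In the lowest group, with folds up to 4.94, it was 298 bp (95% interval 293 to 304 bp) against 348 bp (325 to 365 bp). The median folds of the 2 sets in this group were both 4.38. In the middle group, with median folds of 6.37 and 6.43, it was 300 bp (295 to 305 bp) against 342 bp (332 to 357 bp). In the highest group it was 360 bp (348 to 371 bp) against 467 bp (454 to 475 bp), but there the folds were not alike, with medians of 9.46 and 10.7 and maxima of 12.7 and 29.6. The share of peaks in no other list was 71.9% in the lowest group and 9.21% in the highest (95% exact binomial intervals 69.3% to 74.3% and 7.68% to 10.9%). In the lowest and the middle group the median summit reads were 11 against 14 and 14 against 16, over a median background of 2.13 against 2.52 and 1.68 against 1.71 times the genome level. Over all peaks of the 2 sets, the background lay at the genome-wide level for 11.4% of replicate 1-only and 6.49% of shared peaks, and at 2 times that level or more for 31.7% and 38.9%.

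**Figure D5:**
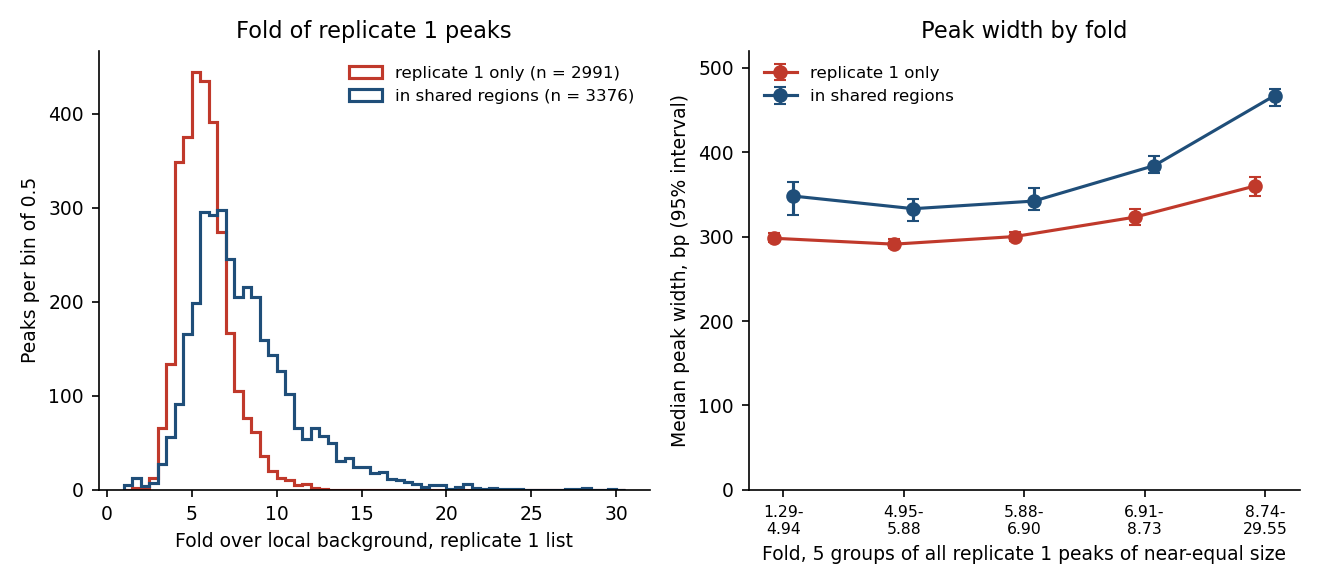
Left, number of replicate 1 peaks per bin of fold (deposited by the authors), for peaks of replicate 1 alone and peaks in shared regions. Right, median width of the same peaks in 5 groups of fold, with 95% intervals; replicate 1-only peaks are narrower in each group, from 298 against 348 bp in the lowest to 360 against 467 bp in the highest.

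The strongest replicate 1-only regions, chosen for their fold, still stood below several percent of the list. The first was chr20:3996144-3996555, with a fold of 12.7 and 40 reads at the summit over 2.56 times the genome background. It ranked 310 among the 6367 folds of the list, and the nearest peak of another list was 7953 bp away. Next came chr6:166970363-166970701 with a fold of 12.4 and 23 reads, and chr19:39109486-39110038 with 12.3 and 25 reads. The others were chr3:53880285-53880654 with 11.9, chr11:7534799-7535278 with 11.8, chr14:54976321-54976676 with 11.8, chr4:87855857-87856292 with 11.7, chr16:18937734-18938191 with 11.7, chr3:138313008-138313425 with 11.6 and chr2:192542589-192542876 with 11.3.

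These 10 regions varied widely in their surroundings. The chromosome 16 region lay 149 bp from a peak of another list, although 124.4 kb from a shared region, and the chromosome 19 region lay 28.0 kb from a shared region. The chromosome 2 region was the most isolated of the 10, at 3385 kb from the next shared region. Their summits held 23 to 40 reads, and 8 of the 10 had a background under 2 times the genome level.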

How the data were processed

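Peaks are on hg19 and the tools named, without role or order, are MACS2 2.1.1, Bowtie2 2.2.5, SAMtools 1.11 and bcl2fastq 1.8.4, per the submitters' processing notes. The call settings were not given in the sources used here. Per BG4 replicate, the authors deposited 1 narrowPeak list, with fold, −log10 p and −log10 q per peak. The deposited score, and values of the input by itself, were not used. Summit reads and background were recovered from the deposited fold (pseudocount 1) and −log10 p, which a whole number of reads met within 0.001 for 100% of peaks. The lowest background, taken as genome-wide, over the smallest peak width gave the depth.

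Merging, edge-to-edge distances, windows counted from position 1, Fisher's exact test with Benjamini-Hochberg adjustment and exact binomial intervals used scipy 1.17.1 with pandas 2.3.3 and numpy 2.4.6 in Python 3.11.15 (figures: matplotlib 3.10.9). Merging, distances, the test per chromosome and the recovery of summit reads were tested on simulated data. Windows and intervals were not. Intervals of medians come from order statistics. All intervals cover counting error only. Spanned lengths include assembly gaps. Members, lists and tests were chosen with earlier results of these data known. Named regions are the 10 of highest fold, 5 on either side of the overlap limit and 5 windows of either kind. The promoter and G4 motif shares were not run, since no hg19 sequence or annotation was used here.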

Additional observations from a re-analysis of the deposited data

Results flagged for a closer look

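Of 8 measures compared over the 4 lists, 1 held a replicate far from the others. Replicate 1 had 2991 regions of its own, against 572 in replicate 3, the next highest, and 212 and 112 in replicates 4 and 2. Chance marks about 1 in 20 such sets of 4 values, and 8 sets were tried. Replicate 1 was the one studied because it had the most, so the flag repeats that selection and gives no support. The other measures, which were the share of a list found in 1 list, the shares on chromosome 19, within 100 kb and in shared windows, and the median distance, width and fold of single-list regions, held no such replicate. The share of a list came closest, with a gap of 0.775 of the range for replicate 1.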

How the results depend on the processing

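Without replicate 1 no region meets the rule. Counts of regions per run, the background limit and the −log10 q of 5 were chosen after seeing the data. The 2991 regions became 320 with lists of equal length and 1846 with replicate 1 peaks of −log10 q at least 5, fewer peaks by construction. Against 0 chromosomes passing, 3 passed with 50% overlap (2, 6, 19), 2 with peaks within 1 kb counted as shared (2, 19), 1 with −log10 q of at least 3 (chromosome 2), 1 with replicate 1 −log10 q of at least 5 (chromosome 2), 1 with lists of equal length (chromosome 1) and 1 against regions in all 4 lists (chromosome 19), and 0 to 4 with 1 replicate left out, the 4 without replicate 3. Without peaks of 2 times the background, and with 1 region per run, 0 passed. The cause was not tested. The chromosome 19 ratio of 0.808 was 0.788 with 50% overlap, 0.775 with 1 kb, 0.645 against all 4 lists and 0.776 to 0.818 with 1 replicate left out. It was 1.12 with 1 region per run. The chromosome 2 ratio of 1.39 was 0.964 with lists of equal length and 1.14 with 1 region per run. The 82.4% in shared windows was 70.3% with lists of equal length, 49.5% against all 4 lists, 80.6% with −log10 q of 5, 70.6% without peaks of 2 times the background, 73.2% to 81.6% with 1 replicate left out, 69.0% in windows of 0.5 Mb (32.5% of which held a shared region) and 98.1% in windows of 5 Mb (88.3%). The 47.6% within 100 kb was 35.3%, 19.6%, 45.7% and 33.4% in the order of the first 4 of these, 45.3% with 1 kb, 38.2% to 46.7% with 1 replicate left out, and 12.1% and 91.2% within 10 kb and 1 Mb. Fewer shared regions lower these shares by construction. The median width of 303 bp was 372.5 bp with lists of equal length and 304 to 313 bp with 1 replicate left out. No paired analysis was possible because there is 1 group of pull-downs. Summits of few reads limit single calls.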

Other observations

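Chromosomes X and Y lay outside the selection. Merged in the same way, chromosome X held 58 regions of replicate 1 alone and 42 shared regions, and chromosome Y held 5 and 6. Of the regions that replicate 1 had in common with 1 other list, 1083 were with replicate 3, 278 with replicate 4 and 138 with replicate 2, the same order as the lengths of those lists.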
